A study of Drosophila melanogaster with 6 samples.

Results

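The genes described here are 10 genes of denticles, the cuticle teeth and hairs of the *Drosophila melanogaster* larva, and of the apical matrix of epithelia. They were chosen by symbol in the deposited gene count table, and all 10 of them were found among its 17208 genes: *ovo*, whose locus encodes the transcription factor Shavenbaby, the cell shape genes *f* and *sha*, and the zona pellucida (ZP) domain genes *dpy*, *pio*, *dyl*, *m*, *mey*, *nyo* and *neo*. All 10 passed the filter on low counts that left 11542 genes for testing. RNA came from embryos aged at 25 °C to 16-20 h of development. Mutant embryos carried the allele pair ft fd5-5/ft X13, a null combination for *fat* per the design text (*ft* null, n = 4 libraries), and embryos of w1118, a white-eyed laboratory strain mutant for *white*, served as the wild type (n = 2 libraries). The labels do not say how many embryos went into a library, how mutant embryos were told from the rest of a collection, or whether libraries of 1 genotype came from separate collections. Spread between libraries, against which the p-values are set, may thus be technical. Strain background and the *ft* alleles vary together and cannot be told apart.

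Shavenbaby, the epidermal product of *ovo*, is the switch that commits an embryonic epidermal cell to make a denticle or hair. It activates genes that bundle and organise actin in the outgrowth and genes for ZP domain proteins, which polymerise outside the apical membrane and tie the membrane to the cuticle that is being laid down over it. The Fat cadherin helps to set the planar polarity along which denticles and hairs are aligned, and it acts upstream of the Hippo growth pathway.

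Libraries held 21261928 to 29151981 estimated counts, and Spearman's rho across genes, which are not independent replicates, was 0.98 to 0.989 between libraries of 1 genotype and 0.972 to 0.982 between genotypes. *ft* itself (dm6 2L from 4198404 to 4221796, minus strand) stood at 28.6, 28.98, 32.2 and 30.5 CPM in *ft* null replicates 1 to 4, against 43.2 and 46.3 CPM in w1118 replicates 1 and 2, where CPM is the count scaled to a common library size with TMM factors. It was lower in *ft* null (log2 fold change -0.57, SE 0.106, adjusted p = 0.0249 in edgeR), and reads of the gene were still present. Gene counts do not tell from which alleles or embryos these reads came. The call held without *ft* null replicate 1 (adjusted p = 0.0226 in edgeR). It was lost without any other library (edgeR adjusted p = 0.0563 to 0.127), with a replicate block (0.0936) and with replicates 1 and 2 only (0.115), while the log2 fold change stayed between -0.64 and -0.52. In bulk RNA from whole embryos, fewer cells of a type and less RNA per cell cannot be told apart.

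None of the 10 genes passed the threshold of an adjusted p under 0.05 in edgeR, where 4.3% of all tested genes did (2.15% higher and 2.15% lower). At an unadjusted p under 0.05, 1 of them was higher in *ft* null (*sha*; 9.92% of all tested genes were higher at that level) and 2 were lower (*dpy* and *pio*; 10.2% of all tested genes), so 3 of 10 passed that level in either direction against 20.1% of all tested genes. Limma voom called 0 of the 10, against 4.54% of all tested genes (2.21% higher and 2.33% lower). DESeq2 called 1, *dpy*, as lower, against 8.4% of all tested genes (4.48% higher and 3.92% lower). The 4 *ft* null values lay above both w1118 values for *sha* alone (15.1% of all tested genes) and below both for *dpy* alone (16.4%), or 2 of 10 on either side against 31.5%, while the other 8 genes overlapped between genotypes. The fitted log2 fold change was above 0 for 8 genes (5985 of the 11542 tested genes were) and below 0 for *dpy* and *pio*, with a median of 0.39 against 0.01 over all tested genes. Counts of 0, 2 and 3 among 10 genes are near those shares. Several of the genes also spread widely among the *ft* null libraries, as described with each. Without *ft* null replicate 1 the median log2 fold change of the 10 fell to 0.12, and *dyl*, *f* and *neo* turned below 0.

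**Figure D1:**
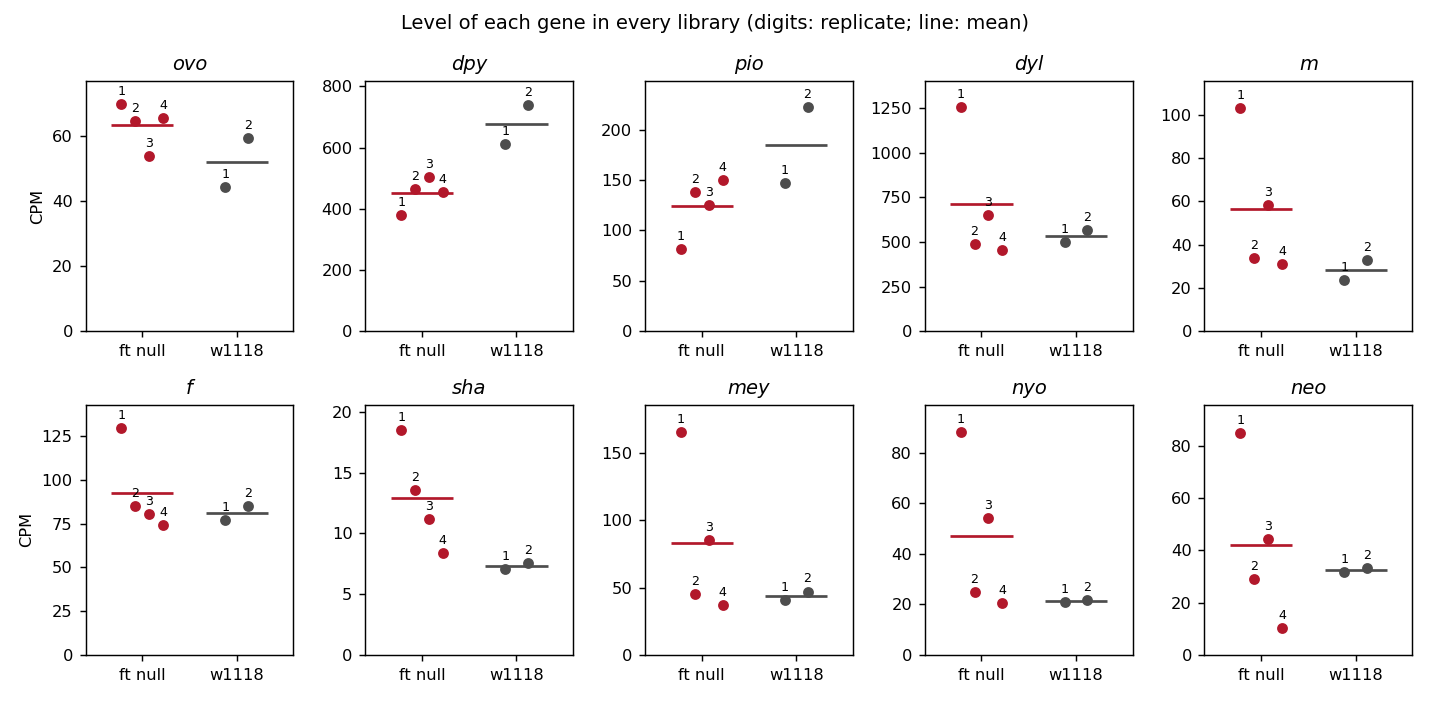
Level of each of the 10 genes in CPM (y axis, from 0, own scale per panel) in the 4 *ft* null and 2 w1118 libraries, with points numbered by replicate and a line at the mean. *dpy* lay lower in every *ft* null library than in w1118 and *sha* higher, and for *dyl*, *m*, *mey*, *nyo* and *neo* *ft* null replicate 1 stood highest, with replicate 3 next.

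The regulator came first. *ovo* (FBgn0003028, dm6 X from 5048273 to 5070929, plus strand, 5 annotated transcripts from 3 start sites) stood at 69.8, 64.5, 53.6 and 65.4 CPM in *ft* null replicates 1 to 4 and at 44.4 and 59.2 CPM in w1118 replicates 1 and 2. The groups overlapped, since *ft* null replicate 3 lay below w1118 replicate 2. It averaged 63.3 ± 6.87 CPM over the *ft* null libraries (SD, n = 4) and 51.8 ± 10.5 CPM over the w1118 libraries (SD, n = 2). Its log2 fold change of 0.29 (SE 0.157) did not pass (adjusted p = 0.346 in edgeR). The value lay at 0.10 without w1118 replicate 1 and at 0.52 without w1118 replicate 2. The *ovo* locus also makes germline proteins from other start sites, and gene counts do not separate these from the epidermal transcript. Of the germline markers listed for this check, 6 of 7 were tested (*nos*, *vas*, *osk*, *otu*, *bam* and *aub*), 0 were called in edgeR, and their summed level was low, at 14.4 to 16.6 CPM in *ft* null and 13.2 to 14.8 CPM in w1118. Among the known partners of Ovo in the epidermis, 3 of 4 were in the table under the symbols used, and none of these was called in edgeR. *Ubr3*, a ubiquitin ligase gene needed to process Shavenbaby, had 93.0, 95.2, 104 and 96.8 CPM in *ft* null and 102 and 113 CPM in w1118. *SoxN*, which encodes a Sox transcription factor that acts with Shavenbaby in denticle cells (chosen after its values were seen), stood at 71.0, 57.4, 47.0 and 50.4 CPM in *ft* null and at 44.0 and 45.9 CPM in w1118 (log2 fold change 0.33, adjusted p = 0.331 in edgeR).

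The genes of the actin-based outgrowth came next. *sha* (FBgn0003382, dm6 2R from 11324314 to 11336463, plus strand), which encodes Shavenoid, a protein needed to organise actin in denticles and hairs, had 18.5, 13.6, 11.1 and 8.35 CPM in *ft* null replicates 1 to 4, against 7.08 and 7.52 CPM in w1118 replicates 1 and 2. All 4 mutant libraries lay above both controls, and *ft* null replicate 1 was the highest. The fitted level was 1.76-fold higher in *ft* null (log2 fold change 0.82, SE 0.3), which did not pass over all genes (adjusted p = 0.18 in edgeR), and leaving out *ft* null replicate 1 gave 0.59 on the log2 scale. It was the lowest of the 10 genes in raw reads, with 239 to 389 counts in *ft* null and 164 and 218 in w1118.

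*f* (FBgn0262111, dm6 X from 17232942 to 17280964, plus strand) encodes Forked, which cross-links actin into bundles. It stood at 130, 84.9, 80.5 and 74.1 CPM in *ft* null and at 77.2 and 84.9 CPM in w1118. Apart from *ft* null replicate 1, the libraries of both genotypes fell in the same range, and the log2 fold change of 0.19 (SE 0.222, adjusted p = 0.693 in edgeR) turned to -0.02 without that library. Its exons share 47 bases with *CG8664* on the other strand, and those of *ovo* share 25 bases with a noncoding RNA gene, so that under 1% of either gene's exon length (0.511% and 0.338%) lies where an unstranded library cannot assign reads.

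Other actin regulators of denticles and hairs behaved much as the whole table did. None of 13 passed in edgeR (4.3% of all tested genes did), and the median log2 fold change was -0.03. At an unadjusted p under 0.05 there was 1 higher and 1 lower, against 9.92% and 10.2% of all tested genes. The lower was *Arp2* (log2 fold change -0.31, adjusted p = 0.159 in edgeR), named after its values were seen. All mutant libraries lay above both controls for 2 of the 13 and below both for 3 (15.1% and 16.4% of all tested genes). The highest of them, *tsr*, which encodes the actin-severing protein cofilin, had 475, 513, 502 and 466 CPM in *ft* null and 541 and 364 CPM in w1118. The *tsr* log2 fold change of 0.11 turned to -0.14 without w1118 replicate 2. *ena*, an actin elongation factor gene chosen after its values were seen, came nearest to the threshold. It had 290, 291, 255 and 264 CPM in *ft* null, against 170 and 203 CPM in w1118, with every mutant library above both controls. The log2 fold change of 0.56 (SE 0.127) missed the threshold in edgeR (adjusted p = 0.0512) and passed in DESeq2 (adjusted p = 0.00261) and limma voom (adjusted p = 0.046). The bundler gene *sn*, which encodes fascin and was also chosen after its values were seen, repeated the picture of *f*, with 125, 83.2, 81.2 and 73.1 CPM in *ft* null and 74.1 and 75.6 CPM in w1118.

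The ZP genes *mey*, *nyo*, *m*, *dyl* and *neo* all spread widely among the mutant libraries. *mey* (FBgn0039851, dm6 3R from 31499235 to 31506992, plus strand) encodes Morpheyus, which sits in a restricted zone of the denticle surface. It had 166, 45.4, 85.7 and 36.8 CPM in *ft* null replicates 1 to 4 and 41.1 and 47.1 CPM in w1118 replicates 1 and 2. *ft* null replicates 1 and 3 were high, while replicate 2 lay between the controls and replicate 4 below both. The fitted log2 fold change of 0.92 (SE 0.561) did not pass (adjusted p = 0.406 in edgeR) and was 0.34 without *ft* null replicate 1.

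*nyo* (FBgn0039852, dm6 3R from 31543032 to 31566165, plus strand), which encodes the ZP protein Nyobe and lies 36039 bases from *mey*, followed the same course. It had 88.4, 24.8, 54.3 and 20.6 CPM in *ft* null and 20.9 and 21.7 CPM in w1118. The 2 controls were nearly equal, yet *ft* null replicate 4 lay just below them. The log2 fold change was 1.14 (SE 0.559, adjusted p = 0.296 in edgeR), the largest of the 10 and 0.64 without *ft* null replicate 1.

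*m* (FBgn0002577, dm6 X from 11754273 to 11769508, plus strand) encodes Miniature, a membrane-bound ZP protein of denticles and of the wing surface. It stood at 103, 33.8, 58.4 and 30.9 CPM in *ft* null and 23.8 and 32.8 CPM in w1118. Only *ft* null replicate 4 fell between the controls, and the rest lay above both. The log2 fold change was 0.999 (SE 0.479, adjusted p = 0.289 in edgeR) and 0.54 without *ft* null replicate 1.

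*dyl* (FBgn0066365, dm6 3L from 4294004 to 4307718, minus strand), which encodes Dusky-like, a ZP protein that organises the matrix of denticles and bristles, had 1258, 487, 653 and 455 CPM in *ft* null and 502 and 566 CPM in w1118. Without *ft* null replicate 1 its log2 fold change of 0.42 (SE 0.394, adjusted p = 0.602 in edgeR) turned to -0.01. *neo* (FBgn0039704, dm6 3R from 29819131 to 29825800, plus strand), the gene of the denticle ZP protein Neyo, spread furthest, at 84.8, 28.8, 44.1 and 10.2 CPM in *ft* null against 31.7 and 33.3 CPM in w1118. The controls sat inside the mutant range, *ft* null replicate 4 was the lowest library and replicate 1 the highest. For *neo* the log2 fold change of 0.37 (SE 0.651, adjusted p = 0.805 in edgeR) turned to -0.23 without *ft* null replicate 1.

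The spread could be set against the rest of the table. Among the 9796 tested genes with an average log2 CPM of at least 1, the highest *ft* null library exceeded the lowest by a median of 1.28-fold, and by 2.51-fold at the 95th percentile. The ratio was 8.29 for *neo*, 4.51 for *mey*, 4.29 for *nyo*, 3.33 for *m* and 2.77 for *dyl*. Of all those genes, 0.521%, 1.41%, 1.53%, 2.61% and 4.02% were at least as wide as these 5. *sha* at 2.21, *pio* at 1.84 and *f* at 1.75 were wider than the median, whereas *dpy* at 1.32 and *ovo* at 1.30 lay close to it. Of the 10 genes, 8 were highest in *ft* null replicate 1 and 7 were lowest in *ft* null replicate 4. Over all 9796 genes, 35.2% were highest in *ft* null replicate 1 and 28.7% lowest in *ft* null replicate 4, and 36.4% were lowest in *ft* null replicate 1, as *dpy* and *pio* were. With RLE, upper quartile or no scaling factors the number of the 10 highest in *ft* null replicate 1 was again 8.

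**Figure D2:**
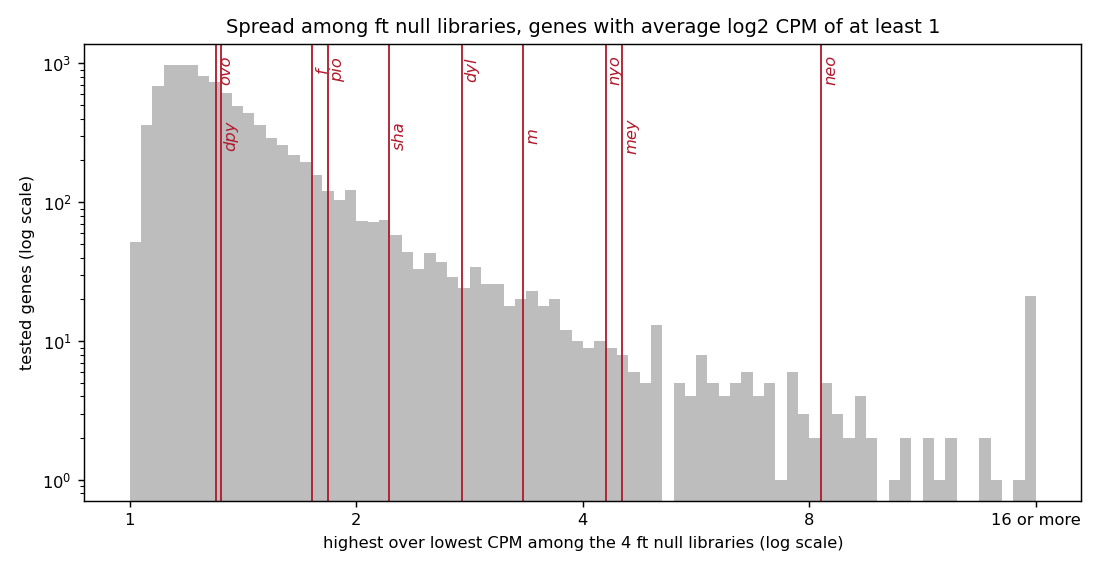
Histogram of the ratio of the highest to the lowest CPM among the 4 *ft* null libraries (x axis, log scale, ratios of 16 or more in the last bin) for the 9796 tested genes with an average log2 CPM of at least 1 (y axis, number of genes, log scale), with the 10 genes as red lines. *ovo* and *dpy* lie near the bulk at 1.30 and 1.32, while *m*, *nyo*, *mey* and *neo* lie beyond the 95th percentile of 2.51, as does *dyl* at 2.77.

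Several ratios between these genes ranged less than the genes themselves. They are ratios of CPM, not corrected for gene length, and are given as a description. *mey* over *nyo* was 1.88, 1.83, 1.58 and 1.78 in the *ft* null libraries and 1.96 and 2.17 in w1118, a 1.38-fold range over libraries in which *mey* itself moved 4.51-fold. *mey* over *m* ran from 1.19 to 1.61 in *ft* null and from 1.44 to 1.73 in w1118. *mey* over *neo* held less steady, from 1.574 to 3.594 in *ft* null and from 1.295 to 1.416 in w1118, a 2.775-fold range. *dyl* over *mey* ran from 7.59 to 12.4 in *ft* null and from 12.0 to 12.2 in w1118, lowest where *mey* was highest, since *dyl* moved less. *ovo* over *mey*, by contrast, ran from 0.421 to 1.78 in *ft* null and from 1.081 to 1.26 in w1118, a 4.22-fold range over the 6 libraries.

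Outside the 10, *tyn* and *Np*, both chosen after their values were seen, kept nearly the same course as *mey*. *tyn*, which encodes Trynity, another ZP protein of the denticle and trachea, had 307, 109, 193 and 78.1 CPM in *ft* null and 94.1 and 94.0 CPM in w1118. *Np*, which encodes Notopleural, a transmembrane protease known to cleave ZP proteins, had 169, 50.7, 98.1 and 37.1 CPM in *ft* null and 41.2 and 52.0 CPM in w1118. *Np* over *mey* stayed between 1.01 and 1.15 in *ft* null and between 1.004 and 1.102 in w1118. Of the 11 other ZP domain genes, *zye*, *qsm*, *CG17111*, *CG15020* and *CG12814* were instead at their lowest mutant level in *ft* null replicate 1, at -0.15, -0.24, -0.21, -0.33 and -0.31 from the mean log2 CPM of the *ft* null libraries, where *tyn* stood at 1.03. These 5 were named after their values were seen. Neither *tyn* nor *Np* passed between genotypes (log2 fold changes 0.87 and 0.93, edgeR adjusted p = 0.37 and 0.397).

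**Figure D3:**
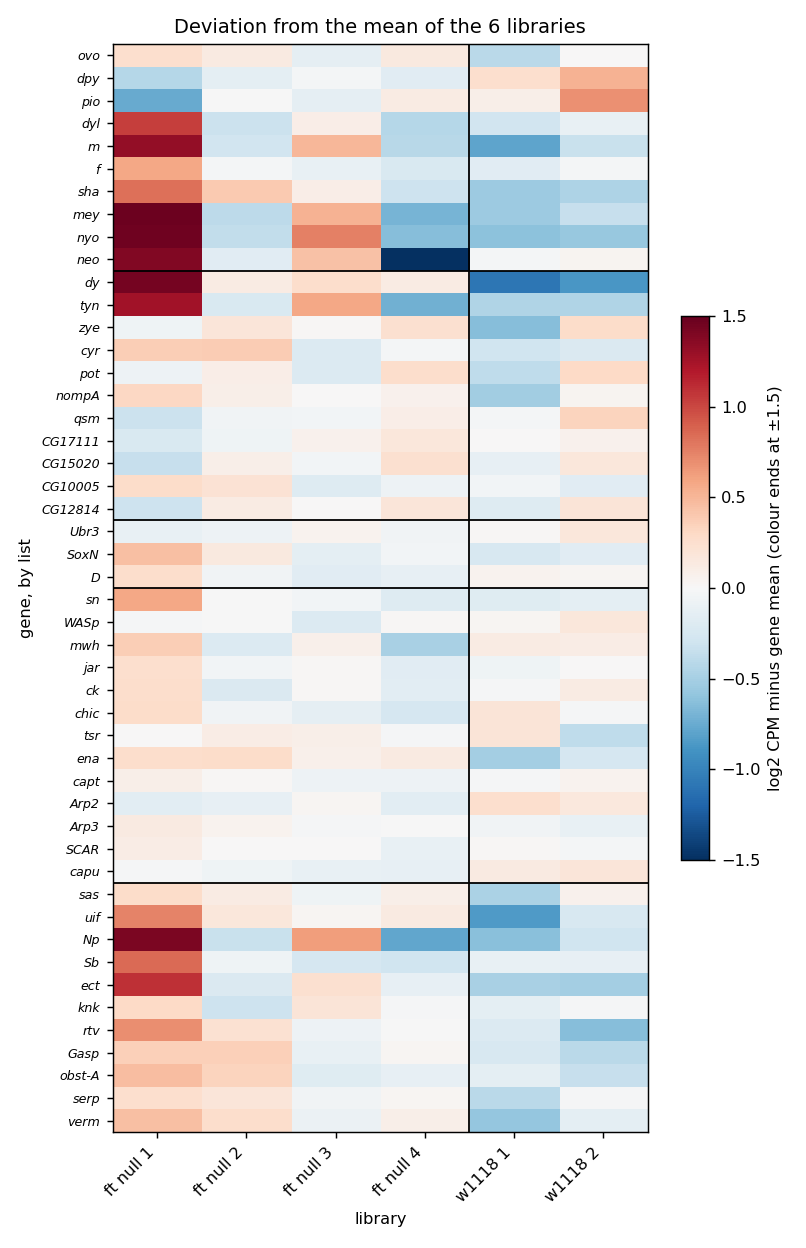
Deviation of each gene (rows, by list from the top: the 10 genes, other ZP domain genes, Ovo partners, actin regulators, apical matrix partners) from its mean log2 CPM over the 6 libraries (columns, 4 *ft* null then 2 w1118), red above and blue below, with colours ending at 1.5. *m*, *mey*, *nyo*, *neo*, *tyn* and *Np* are red in *ft* null replicates 1 and 3 and blue in replicates 2 and 4, and *dpy* and *pio* are the reverse of them in *ft* null replicate 1.

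Epidermal markers did not share 1 course. Of the 4 (*grh*, *ple*, *Ddc* and *kkv*), 0 were called in edgeR and none stood at 0, and their summed level was 1059 to 1309 CPM in *ft* null and 826 to 1076 CPM in w1118. *kkv*, the chitin synthase gene of the cuticle, had 875, 570, 611 and 542 CPM in *ft* null replicates 1 to 4 and 317 and 475 CPM in w1118. Its fitted value of 0.71 on the log2 scale missed the threshold in edgeR (adjusted p = 0.152) and passed in DESeq2 (adjusted p = 0.0445). *ple*, which encodes tyrosine hydroxylase, had 136, 102, 102 and 106 CPM in *ft* null and 152 and 150 CPM in w1118, every mutant library below both controls (log2 fold change -0.44, adjusted p = 0.137 in edgeR). *Ddc*, an enzyme gene of cuticle hardening, was lowest in *ft* null replicate 1, with 168 CPM there, 271 to 325 CPM in *ft* null replicates 2 to 4, and 236 and 291 CPM in w1118. *kkv*, *ple* and *Ddc* were singled out after their values were seen. All 6 libraries carry the same 16-20 h label, which does not give the mean age of the embryos. The part of these markers, and of embryo age, in the spread of the ZP genes was not tested.

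*dpy* and *pio* were the ZP genes of the 10 whose fitted change was below 0. *dpy* (FBgn0053196, dm6 2L from 4477462 to 4614300, minus strand, 16 annotated transcripts) encodes Dumpy, a gigantic ZP protein that anchors the cuticle to epidermal, tendon and tracheal cells. It stood at 381, 466, 503 and 456 CPM in *ft* null replicates 1 to 4 and at 612 and 739 CPM in w1118 replicates 1 and 2. Every mutant library lay below both controls, and the lowest was *ft* null replicate 1, where the other 5 ZP genes of the 10 were at their highest. It averaged 452 ± 51.3 CPM over the *ft* null libraries (SD, n = 4) and 676 ± 89.5 CPM over the w1118 libraries (SD, n = 2). The log2 fold change of -0.58 (SE 0.146), or 0.668 of the w1118 level, missed the threshold in edgeR (adjusted p = 0.0683) and limma voom (adjusted p = 0.0749) and passed in DESeq2 (adjusted p = 0.00824). It passed also in edgeR with library totals in place of TMM factors (-0.62, adjusted p = 0.0475). Without each library in turn the value ran from -0.71 to -0.43 and the edgeR adjusted p from 0.0531 to 0.282.

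*pio* (FBgn0020521, dm6 2R from 24581245 to 24597862, plus strand) encodes Piopio, a ZP protein that works with Dumpy to hold epithelia to the apical matrix. It had 81.9, 138, 126 and 150 CPM in *ft* null and 147 and 223 CPM in w1118. *ft* null replicate 4 overlapped w1118 replicate 1, and *ft* null replicate 1 was the lowest library. The log2 fold change was -0.58 (SE 0.25, adjusted p = 0.247 in edgeR), -0.85 without w1118 replicate 1 and -0.25 without w1118 replicate 2. *dpy* over *pio* ran from 3.03 to 4.65 in *ft* null and from 3.32 to 4.15 in w1118. The direction of *dpy* and *pio* was below 0 in each of the 15 alternative fits, which reuse the same 6 libraries. The values came nearest to 0, at -0.38 for *dpy* and -0.11 for *pio*, without both *ft* null replicate 1 and w1118 replicate 2.

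**Figure D4:**
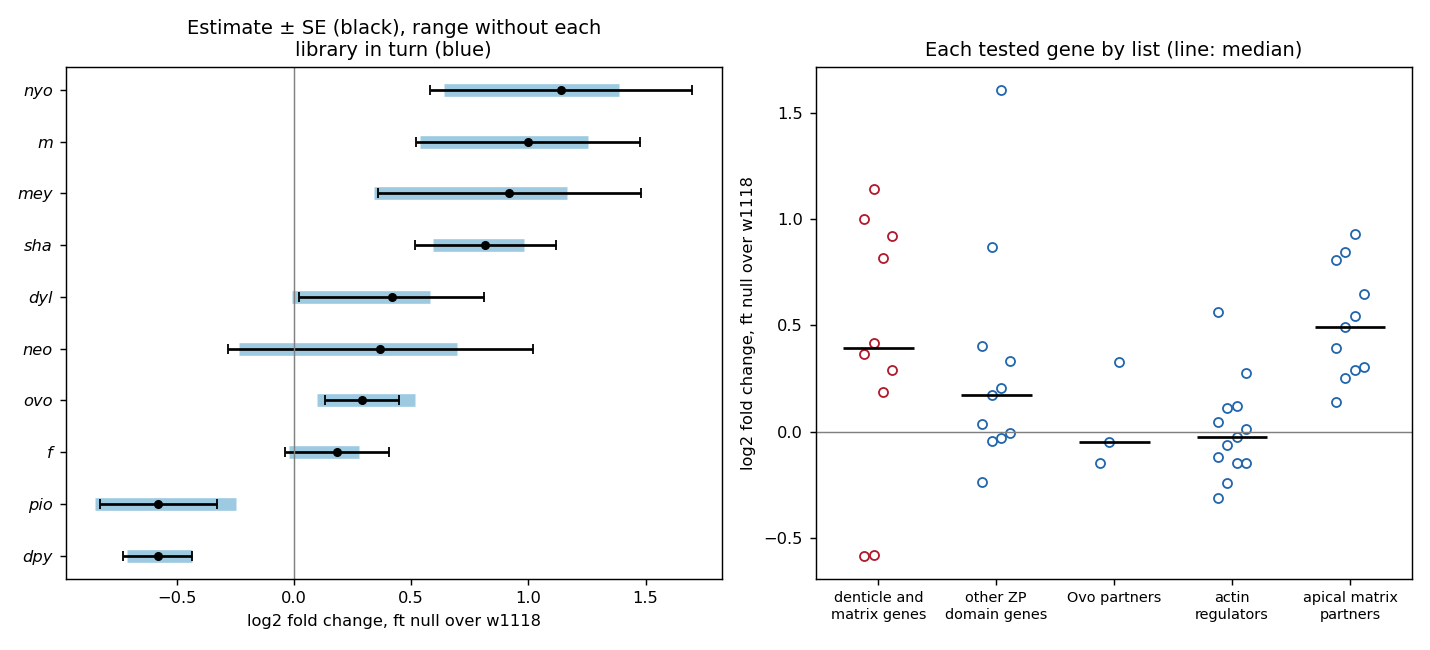
Left, log2 fold change of *ft* null over w1118 for each of the 10 genes with its SE (black) and the range when each library is left out in turn (blue bars). Right, the same quantity for every tested gene of the 5 lists, with a line at the median. *dpy* and *pio* are the 2 genes of the 10 below 0, *neo*, *dyl* and *f* have ranges that cross 0, and the list medians run from -0.05 to 0.49.

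Markers of the tissues in which Dumpy and Piopio work were given beside these values. Of 3 tendon cell markers (*sr*, *Tsp* and *shot*), 0 were called in edgeR, and their summed level was 1427 to 1803 CPM in *ft* null and 1578 to 2216 CPM in w1118. Their log2 fold changes differed in sign, at 0.05 for *sr*, 0.40 for *Tsp* and -0.46 for *shot*, which held most of the sum. Of 4 tracheal markers, 2 were in the table under the symbols used, and their summed level was 53.8 to 62.0 CPM in *ft* null and 48.1 to 53.2 CPM in w1118. *btl*, the FGF receptor gene of tracheal branching, was higher, at 18.0, 15.9, 17.7 and 18.3 CPM in *ft* null and 8.32 and 10.2 CPM in w1118 (log2 fold change 0.92, SE 0.151, adjusted p = 0.0161 in edgeR). That call was lost without *ft* null replicate 3 (adjusted p = 0.0614 in edgeR) or w1118 replicate 1 (adjusted p = 0.0789), with a replicate block (adjusted p = 0.0713) and with replicates 1 and 2 only (adjusted p = 0.109), at log2 fold changes of 0.77 to 0.91. *trh*, the other tracheal marker, had a log2 fold change of -0.04. The 3 neuronal and 3 muscle markers gave 0 calls in edgeR, with summed levels of 509 to 592 and 16959 to 20464 CPM in *ft* null and of 408 to 598 and 14653 to 20973 CPM in w1118. The part of these markers in the values of *dpy* and *pio* was not tested.

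*dpy* lies 255.7 kb from *ft*, on the same arm and strand, so its alleles in *ft* null embryos come with the chromosomes that carry the *ft* alleles. Between the 2 genes, 32 genes were tested. Of these, 1 was called, *CG15443*, at a log2 fold change of 1.31 (adjusted p = 0.00416 in edgeR), and it was named after its value was seen. Over the 136 other tested genes that lie between *ft* and *dpy* or within 500 kb of either, 7 were called higher and 1 lower, or 5.88% against 4.3% of all tested genes. The median absolute log2 fold change of the 136 was 0.23, against 0.21 over all tested genes. Within 500 kb on the *ft* side, 4 of 35 were called (11.4%), all higher. Within 500 kb on the *dpy* side, 2 of 67 were called higher and 1 lower (4.48%). Whether sequence differences in *dpy* between the strains bear on its counts was not analysed here.

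**Figure D5:**
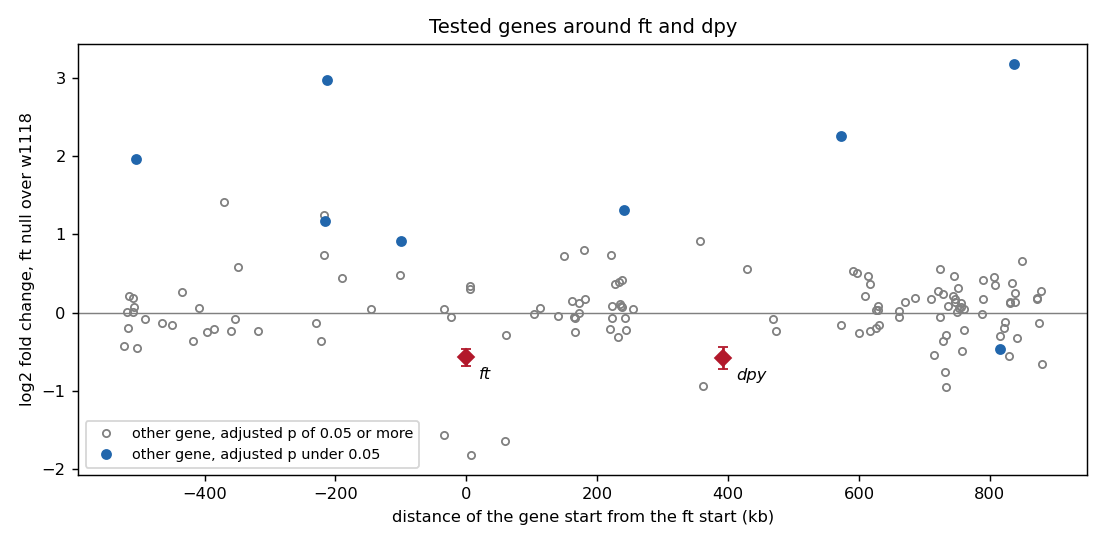
Log2 fold change of *ft* null over w1118 (y axis) for tested genes around *ft* and *dpy*, by the distance of the gene start from the *ft* start in kb (x axis). *ft* and *dpy* are red diamonds with their SE, genes called in edgeR are filled blue, and the others are open. 7 of the 8 filled genes lie above 0, and *dpy* at -0.58 stands among neighbours whose median over all 136 is 0.06.

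Of the other ZP domain genes, 11 of 11 were tested and none was called in edgeR. At an unadjusted p under 0.05, 1 was higher and 0 lower. Their median log2 fold change was 0.17, which moved to -0.07 without w1118 replicate 1 and to 0.42 without w1118 replicate 2. The highest, *zye*, a ZP gene of the denticle, had 305, 360, 321 and 375 CPM in *ft* null and 205 and 386 CPM in w1118, with the 2 controls at opposite ends. Without w1118 replicate 1 its log2 fold change of 0.20 (adjusted p = 0.678 in edgeR) turned to -0.18, and without w1118 replicate 2 it was 0.74 (adjusted p = 0.0961). It passed when *ft* null replicate 1 was left out as well (0.77, adjusted p = 0.014). *dy*, which encodes Dusky and lies 260 bases from *m* on the opposite strand, was singled out after its values were seen. It stood at 14.0, 5.57, 6.16 and 5.55 CPM in *ft* null and at 2.37 and 2.75 CPM in w1118, every mutant library above both controls. The log2 fold change was 1.61 (SE 0.44, adjusted p = 0.0859 in edgeR), and 1.17 without *ft* null replicate 1, when it passed (adjusted p = 0.0115 in edgeR). DESeq2 called it with all libraries (adjusted p = 0.00305).

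Apical matrix partners all had fitted values above 0. Of 12 listed, 11 were tested and 0 were called in edgeR, all 11 had a log2 fold change above 0, where 5985 of the 11542 tested genes did, and the median was 0.49. At an unadjusted p under 0.05, 5 were higher and 0 lower, against 9.92% and 10.2% of all tested genes. *verm*, a chitin deacetylase gene and the highest of them, had 4568, 4001, 3133 and 3552 CPM in *ft* null and 2221 and 3018 CPM in w1118 (log2 fold change 0.54, SE 0.202, adjusted p = 0.184 in edgeR). *ect*, an apical matrix gene, had 2135, 859, 1188 and 918 CPM in *ft* null and 715 and 706 CPM in w1118. *uif*, which encodes Uninflatable, a large apical transmembrane protein, had 1356, 910, 823 and 889 CPM in *ft* null and 449 and 686 CPM in w1118. All mutant libraries of *ect* and *uif*, which were chosen after their values were seen, lay above both controls, yet neither passed in edgeR (log2 fold changes 0.84 and 0.81, adjusted p = 0.243 and 0.126), and *uif* passed in DESeq2 (adjusted p = 0.0209).

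To compare the genes with each other, CPM was divided by the kilobases of annotated exon. On this scale *dyl* had the highest level, at 227 ± 119 CPM per kb in *ft* null (SD, n = 4) and 170 ± 14.4 CPM per kb in w1118 (SD, n = 2). In *ft* null it stood above 97.2% of the 11461 tested genes with an annotated length. *pio* came next at 34.4 ± 8.28 and 51.4 ± 14.8 CPM per kb in *ft* null and w1118, and *mey* after it at 24.6 ± 17.4 and 13.03 ± 1.27 CPM per kb. *sha* was the lowest at 2.11 ± 0.703 and 1.19 ± 0.0507 CPM per kb. *dpy*, with 71.82 kb of exon, was high in CPM and low per length, at 6.29 ± 0.714 CPM per kb in *ft* null and 9.41 ± 1.25 CPM per kb in w1118. It ranked 9 of 10 in *ft* null and 5 of 10 in w1118. The scale assumes that reads spread evenly along a transcript, and coverage along *dpy* was not examined.

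The order in *ft* null was *dyl*, *pio*, *mey*, *m*, *neo*, *nyo*, *f*, *ovo*, *dpy* and *sha*. Neighbours from *pio* down to *ovo* overlapped in their ranges over the *ft* null libraries, so their order there is not resolved, while *dyl* from *pio*, *ovo* from *dpy* and *dpy* from *sha* did not overlap. In w1118 the order was *dyl*, *pio*, *mey*, *neo*, *dpy*, *f*, *m*, *ovo*, *nyo* and *sha*, and *dpy*, *f*, *m* and *ovo* were the neighbours whose ranges over the 2 libraries overlapped. With the longest transcript in place of all exons, the top 3 and the last gene kept their places in both genotypes.

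By the measure of likeness used for *ovo*, the root mean square difference of log2 CPM centred on the gene's mean over the 6 libraries, the 5 nearest of 9730 other genes were *dsd*, *atk*, *mei-217*, *CG9609* and *CG13907*, at 0.0298, 0.0433, 0.0505, 0.0527 and 0.0536. Of those genes, 33.9% lay within 0.25 of it. Among the 10 themselves, *mey* and *nyo* were the closest pair at 0.139, followed by *m* with *mey* at 0.173 and *m* with *nyo* at 0.194, and then *dpy* with *pio* at 0.214. *ovo* lay nearest to *f* at 0.238.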

How the data were processed

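RNA-seq was read from the 1 gene table that the authors deposited, which holds Salmon's estimated counts without normalization. Per the submitters' processing notes, the tools were FastQC 0.10, Trimmomatic 0.33, Salmon 1.80 and edgeR, on build dm6, and neither annotation release nor options were found in the labels. Libraries were made with the SMARTer Ultra Low RNA kit from 10 ng of total RNA and 12-15 amplification cycles, and read as 150-base pairs, per the labels' protocols. No molecular identifiers or strand setting are described. Estimated counts depend on how the model shares reads among transcripts.

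Counts were rounded, filtered (filterByExpr), scaled (TMM) and tested with the quasi-likelihood F test of edgeR 4.0.16 in R 4.3.3, with genotype as the 1 term over 6 libraries. Benjamini-Hochberg adjustment ran over 11542 genes, and an adjusted p under 0.05 was called. Log2 CPM used a prior count of 2. DESeq2 1.42.0 and limma 3.58.1 (voom) served as alternatives. The edgeR steps were tested on simulated data. The common biological coefficient of variation was 18.2%. No replicates agreed within sampling noise (lowest chi-square per degree of freedom 19.9). Coordinates and lengths came from Ensembl release 115, in dm6 coordinates.

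The 10 genes and all lists were chosen with earlier results of these data known. Named by rule are the 10, *ft*, up to 3 called genes of each other list or else its highest gene, and the 5 genes most like *ovo*; others are marked as chosen after their values were seen. *tal*, *dys* and *obst-C* matched no symbol of the table, and *pgc* did not pass the filter.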

Additional observations from a re-analysis of the deposited data

Results flagged for a closer look

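*dy* in *ft* null replicate 1 stood far from the other mutants, at 14.0 CPM against 5.57, 6.16 and 5.55 CPM in replicates 2 to 4, so that the gap to the nearest library was 0.928 of the range of the 4. The same held for *uif*, at 1356 CPM in *ft* null replicate 1 against 910, 823 and 889 CPM, a gap of 0.837 of the range. Both exceed Dixon's 95% critical value for 4 libraries, which chance passes in about 1 of 20 groups. Of the 24 genes examined, 2 exceeded it, and none of the 10 denticle and matrix genes was among them. The 24 were the 10, *ft* and other named genes, several of them chosen after their values were seen. Some named genes, such as *ple*, were not examined, so 2 of 24 is not a rate over all genes.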

How the results depend on the processing

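Of the 10 genes, DESeq2 and library totals each called 1, *dpy*, as lower, and a replicate block called 1, *sha*, as higher (log2 fold change 1.12, edgeR adjusted p = 0.0438). The other alternatives called 0 of the 10. Over all tested genes, library totals called 516 (303 lower) and the replicate block called 455 (211 higher). Replicate numbers paired the samples weakly (correlations of deviations 0.206 and -0.0668 for the 2 shared numbers), so the block rests on the number alone. Numbers 3 and 4 occur in *ft* null only, so those libraries do not inform the genotype contrast of the blocked fit. With replicates 1 and 2 only, *sha* was at 1.135 on the log2 scale (adjusted p = 0.0659 in edgeR). Without each library in turn, alone or with *ft* null replicate 1 and w1118 replicate 2 both left out, *dyl* ran from -0.006977 to 0.581, *f* from -0.02261 to 0.2777, *neo* from -0.2323 to 0.6942, *zye* from -0.1814 to 0.77 and *tsr* from -0.1432 to 0.4245 on the log2 scale, and *neo* was -0.03964 in limma voom. The cause was not tested. Over all genes, 970 were called in DESeq2 (517 higher, 453 lower) and 248 with replicates 1 and 2 only (131 higher, 117 lower), and leaving libraries out gave 173 to 810 (101 to 477 higher, 72 to 381 lower). Around *ft* and *dpy* the 8 calls became 16 in DESeq2, 5 with the replicate block, 4 with replicates 1 and 2 only and 3 to 14 without libraries. For other ZP genes it was 1 in DESeq2, 1 with the block and 0 to 3 without libraries. For actin regulators it was 1 (*ena*) in DESeq2, limma voom, upper quartile scaling, library totals and no filter, and 0 to 1 without libraries. Apical matrix partners had 1 in DESeq2 and 0 to 3 without libraries. With the longest transcript, *dyl* was at 184.86 CPM per kb in w1118, and *f* at 14.362 in *ft* null and 12.624 in w1118. With 2 control libraries, fits without 1 of them assume that the lone control varies like the mutants. A planned comparison of promoter motifs was not run.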

Other observations

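Applied to each of the 10 genes after the values were seen, the measure of likeness gave few near genes for those that spread widely among libraries. The measure is not scaled to a gene's spread, so a widely spreading gene lies far from most genes by construction. The shares that follow thus restate the spread given above. Of 9730 other genes, 0.154% lay within 0.25 of *m*, 0.113% of *mey*, 0.0617% of *nyo*, 0% of *neo*, 0.606% of *dyl* and 1.29% of *sha*, against 6.82% of *pio*, 16.5% of *dpy*, 23.8% of *f* and 33.9% of *ovo*. The nearest to *m* were *Osi17* at 0.0654, *CG6026* at 0.101 and *ImpE1* at 0.105. The nearest to *mey* were *dsx-c73A* at 0.125 and *Osi17* at 0.156, and these same genes were nearest to *nyo*, at 0.183 and 0.176. *dyl* had *spz4* at 0.11 and *CG31559* at 0.118, and *sha* had *Osi13* at 0.109. *neo* had no close neighbour, with *spz6* at 0.355 and *ImpL1* at 0.356 the nearest. *ImpE1* and *ImpL1* were named as genes induced by the moulting hormone ecdysone, and the *Osi* genes form a family of insect membrane proteins expressed in cuticle-forming epithelia. These genes were picked for description after the values were seen. The 5 nearest genes also held *lint* and *dsx-c73A* for *m*, *CG4702*, *CG8420* and *lint* for *mey*, and *CG15594* and *CG8010* for *sha*, among others. No function in common is read from these distances, which rest on 6 libraries.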
